A study of Mus musculus with 4 samples.

Results

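RNF (RING finger) and TRIM (tripartite motif) proteins make up a large share of the ubiquitin ligases of the mouse, and their transcripts were compared in splenic B cells with and without loss of NSD1, an H3K36 methyltransferase. Members were all genes whose symbol is Rnf or Trim followed by a number and at most 1 letter. This gave 150 members among the 55401 genes counted, 82 RNF and 68 TRIM. The RNA came from B220+ B cells that had been sorted out of C57BL/6J spleens to a stated purity above 98%. The control group, NSD1B WT, carried Mb1-Cre with unaltered NSD1 (Mb1-Cre+ NSD1+/+), and the knockout group, NSD1B KO, carried Mb1-Cre with both NSD1 alleles floxed (Mb1-Cre+ NSD1fl/fl). Both groups therefore carried the Cre, which is driven from the Cd79a (Mb1) locus and acts in the B lineage from an early stage. Each group had 2 libraries. The study used littermates of 7 to 9 weeks and both sexes, with loxP sites around exons 6 to 8 of Nsd1. Age and sex are not given for single libraries, and nothing states that the libraries of a group came from different mice, so the p-values measure only the spread between these libraries, which may be technical.

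Ubiquitin is passed from an activating enzyme (E1) to a conjugating enzyme (E2), and a ligase (E3) then brings the loaded E2 to the substrate. A RING domain is a zinc-binding fold that holds the E2. RNF is a naming group for RING proteins of many unrelated builds, from membrane proteins to chromatin regulators, and its RING-between-RING members carry ubiquitin themselves before passing it on. TRIM proteins share a RING, B-box and coiled-coil order with a variable end, and many act in antiviral defence. In B cells, ubiquitin chains relay signals from the antigen receptor, CD40 and Toll-like receptors to NF-kB.

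The libraries held 6952351 and 7134170 counts on genes in NSD1B WT and 7566834 and 6769118 in NSD1B KO. Levels are given as CPM, the counts of a gene scaled to a common library size by the TMM method. Nsd1 had 497 and 480 counts in NSD1B WT and 284 and 280 in NSD1B KO, a log2 fold change of -0.74 ± 0.11 (SE; edgeR's quasi-likelihood test, Benjamini-Hochberg adjusted p = 8.08e-08). The deposited counts cover the whole gene, of which the floxed exons are a part. All 10 B cell markers were counted, with a summed level of 18319 to 18492 CPM in NSD1B WT and 15589.9 to 16702 CPM in NSD1B KO. Of these markers 7 were lower and 1 was higher in NSD1B KO, and Cd79b, which was not called, made up a large part of the sum. Pax5, a transcription factor of B cell identity, had 279 and 342 counts against 30 and 31, and Cd79a had 14544 and 14192 against 5831 and 5166. All 5 tested erythroid markers, globin genes and Alas2, were higher in NSD1B KO (summed level 35.6 to 39.6 CPM against 1689.8 to 1944 CPM), while Klf1 and Epb42 were at 0 throughout. The summed myeloid level was 4605 to 4709 CPM in NSD1B WT and 5809 to 6157 CPM in NSD1B KO (6 of 8 tested markers higher, 2 lower), with Mpo and Itgax at 0. Lyz2 made up most of this sum, with a mean of 4492 CPM in NSD1B WT and 5717 CPM in NSD1B KO. NK cell markers summed to 55.8 to 59.6 CPM against 101 to 102 CPM (3 of 4 tested higher, 1 lower), with Ncr1, Eomes, Gzma and Gzmb at 0, and plasmacytoid dendritic cell markers to 77.6 to 85.2 CPM against 121 to 126 CPM (1 of 2 tested higher), with Siglech, Cd300c and Klk1 at 0. Most of the NK sum was Nkg7 (mean 54.5 against 79.8 CPM), and most of the plasmacytoid sum was Bst2 (mean 65.1 against 106 CPM). T cell markers summed to 69.2 to 75.1 CPM against 62.6 to 69.2 CPM (of 5 tested, Cd3g and Cd3d were higher and Trac, Lat and Thy1 lower), with Cd4, Cd8a and Cd28 at 0, and plasma cell markers to 267 to 273 CPM against 229.8 to 231 CPM (2 of 4 tested higher, 2 lower), with Sdc1 and Tnfrsf17 at 0. Of all tested genes 37.1% were called higher and 41.1% lower. The part of these cell types in the members' differences was not tested. Trim10 and Trim58, TRIM genes known from red cell precursors, were at 0 in all 4 libraries. In sorted but bulk RNA, fewer cells of a type and less RNA per cell cannot be told apart.

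The promoters of the members were searched for short motifs. Among RefSeq promoters of GRCm38.p6 (250 bases before to 50 after the start), the core of the interferon-stimulated response element (GAAA, any 2 bases, GAAA) on either strand was found in 9 of 53 TRIM members (17%) and 4 of 64 RNF members (6.25%), against 3.99% of all 27025 genes. Among tested genes it was in 7 of 26 TRIM members (26.9%), 3 of 42 RNF members (7.14%) and 3.99% of all 7972 genes with a promoter. The stretches around the match in 8 TRIM members are shown because 6 of them lie in a single cluster of related antiviral genes whose transcripts moved in both directions. Each reads 5′ to 3′ on the strand of the gene, with the match in capitals (TTTC, any 2 bases, TTTC is the same element on the other strand), and stretches whose match lies past the start are kept short.
Trim34a, chr7:104244457-104244486, plus strand: tggtttggagTTTCAGTTTCttttctctgc
Trim5, chr7:104288107-104288195, minus strand: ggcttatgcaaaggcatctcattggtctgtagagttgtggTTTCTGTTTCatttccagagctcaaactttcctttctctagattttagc
Trim12a, chr7:104315466-104315495, minus strand: agagttgtggTTTCTGTTTCatttccagag
Trim12c, chr7:104353350-104353418, minus strand: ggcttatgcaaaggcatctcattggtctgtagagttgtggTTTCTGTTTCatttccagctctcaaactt
Trim30a, chr7:104465194-104465269, minus strand: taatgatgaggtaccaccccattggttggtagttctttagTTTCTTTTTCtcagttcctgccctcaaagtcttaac
Trim30d, chr7:104507850-104507930, minus strand: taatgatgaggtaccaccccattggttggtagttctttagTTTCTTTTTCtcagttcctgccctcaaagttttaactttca
Trim21, chr7:102565450-102565479, minus strand: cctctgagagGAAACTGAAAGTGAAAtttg
Trim26, chr17:36836946-36837041, plus strand: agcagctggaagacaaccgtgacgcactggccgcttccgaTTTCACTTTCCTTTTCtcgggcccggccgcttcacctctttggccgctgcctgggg

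The promoters of Trim5 and Trim12a were identical over all 241 bases that could be aligned without gaps, and those of Trim30a and Trim30d over 276 of 295 bases (93.6%). Trim21 and Trim26 each held 2 overlapping matches. Of the 7 tested TRIM members with the element, Trim26, Trim30a and Trim34a were higher in NSD1B KO, Trim12c and Trim30d were lower, and Trim5 and Trim12a did not pass the test. The near-identical promoters of Trim30a and Trim30d thus belonged to genes called in opposite directions. The GC box GGGCGG, by contrast, was in 85.7% of tested RNF promoters, 57.7% of tested TRIM promoters and 67.2% of all tested promoters. A match is a description of the letters and not a bound site.

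Transcripts of both families differed between genotypes in both directions and by large factors. A gene was called where the adjusted p was under 0.05 and the fold change over 1.2. Of 55 tested RNF members 23 were higher in NSD1B KO, 19 were lower and 13 were not called. Of 33 tested TRIM members 17 were higher, 13 were lower and 3 were not called. The called share was 76.4% of RNF and 90.9% of TRIM members, read against 78.2% of all 11657 tested genes. The shares called higher were 41.8% and 51.5%, where 37.1% of all tested genes were higher, and the shares called lower were 34.5% and 39.4%, where 41.1% of all tested genes were lower. The difference between the families was not tested. The remaining members were 24 RNF and 29 TRIM genes with no count in any library, which allows up to 0.208 CPM in NSD1B WT and 0.215 CPM in NSD1B KO (3 counts over both libraries, counting error only), and 3 RNF and 6 TRIM genes with too few counts to test.

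The median log2 fold change was 0.39 over the tested TRIM members and 0.08 over the RNF members, where the median of all tested genes was -0.10. Setting the members at 0 in 1 genotype to their bound leaves these medians as they are by construction, since the bounds lie on the same side. The TRIM median stayed above 0 under every scaling and filter tried, whereas the RNF median ran from -0.01 to 0.31 and has no stable sign. The median of all tested genes moved as well, from -0.18 with library size alone to 0.03 with the length and GC trend removed. Without NSD1B WT replicate 2 the medians were 0.61 for TRIM and 0.24 for RNF. The median size of the log2 change, whatever its direction, was 1.80 in TRIM and 1.31 in RNF members, and 1.16 over all tested genes. Libraries of the genotypes did not overlap for 47 RNF members (85.5%) and 30 TRIM members (90.9%), where 88.1% of all tested genes did not overlap. Summed over members, RNF transcripts had 1895 and 1839 CPM in NSD1B WT and 2112 and 2019 CPM in NSD1B KO. TRIM transcripts had 1113 and 1115 CPM in NSD1B WT and 1405 and 1381 CPM in NSD1B KO.

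**Figure D1:**
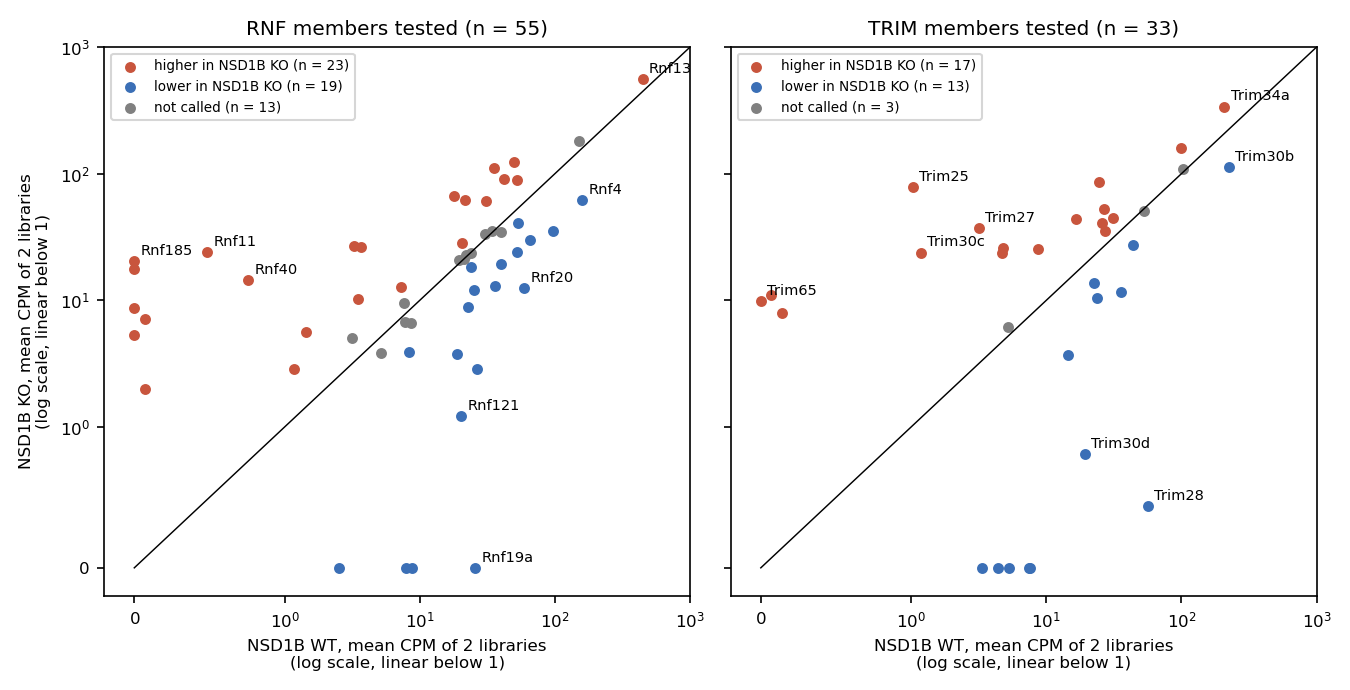
Mean CPM of each tested member in the 2 NSD1B KO libraries (y axis) against the 2 NSD1B WT libraries (x axis), with RNF members on the left, TRIM members on the right and the line of equal levels; both axes are logarithmic above 1 and linear below. Among members with high CPM, Rnf13 lies close to the line, while Trim34a (1.63-fold higher), Trim30b (2-fold lower) and Rnf4 (2.57-fold lower) lie off it. Trim28, Trim25, Rnf11 and the members on the axes lie far from it.

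Among tested members, 9 had no count in either NSD1B KO library and 5 had none in either NSD1B WT library, which is 14.5% of RNF and 18.2% of TRIM members, where 18.9% of all tested genes were at 0 in 1 genotype. The largest of these was Rnf19a, a RING-between-RING ligase, with 200 and 171 counts in NSD1B WT and 0 in NSD1B KO, at least 119-fold lower (floor of 3 counts over the group). Rnf128, known as GRAIL from T cell anergy, had 61 and 54 counts in NSD1B WT, at least 36.9-fold lower in NSD1B KO. Rnf25 had 64 and 63 counts (at least 40.8-fold lower), and Rnf166 had 13 and 24 (at least 11.9-fold lower). In each of these both NSD1B KO libraries were empty.

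The TRIM members at 0 in NSD1B KO were Trim40, Trim23, Trim47, Trim34b and Trim17. Trim40 had 66 and 43 counts in NSD1B WT (at least 35-fold lower in NSD1B KO), and Trim23, which also carries a GTPase domain, had 59 and 48 (at least 34.4-fold lower). Trim47 had 46 and 31 counts (at least 24.7-fold lower), Trim34b had 24 and 40 (at least 20.5-fold lower) and Trim17 had 27 and 21 (at least 15.4-fold lower).

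In the other direction, Rnf185, a ligase of the endoplasmic reticulum, had 0 counts in NSD1B WT and 168 and 119 in NSD1B KO, at least 99.3-fold higher. Rnf135, known as Riplet and required for full activation of the RNA sensor RIG-I, had 129 and 118 counts in NSD1B KO (at least 85.5-fold higher). Trim65, which ubiquitylates the RNA sensor MDA5, had 74 and 63 (at least 47.4-fold higher). Rnf125, which marks RIG-I for degradation, had 59 and 63 (at least 42.2-fold higher), and Rnf149 had 43 and 32 (at least 26-fold higher). Parts of Rnf149 and Rnf125 occur elsewhere in the annotation: 22.6% of the 50-base stretches of Rnf149 exons and 13% of those of Rnf125 also lie in exons of another gene.

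**Figure D2:**
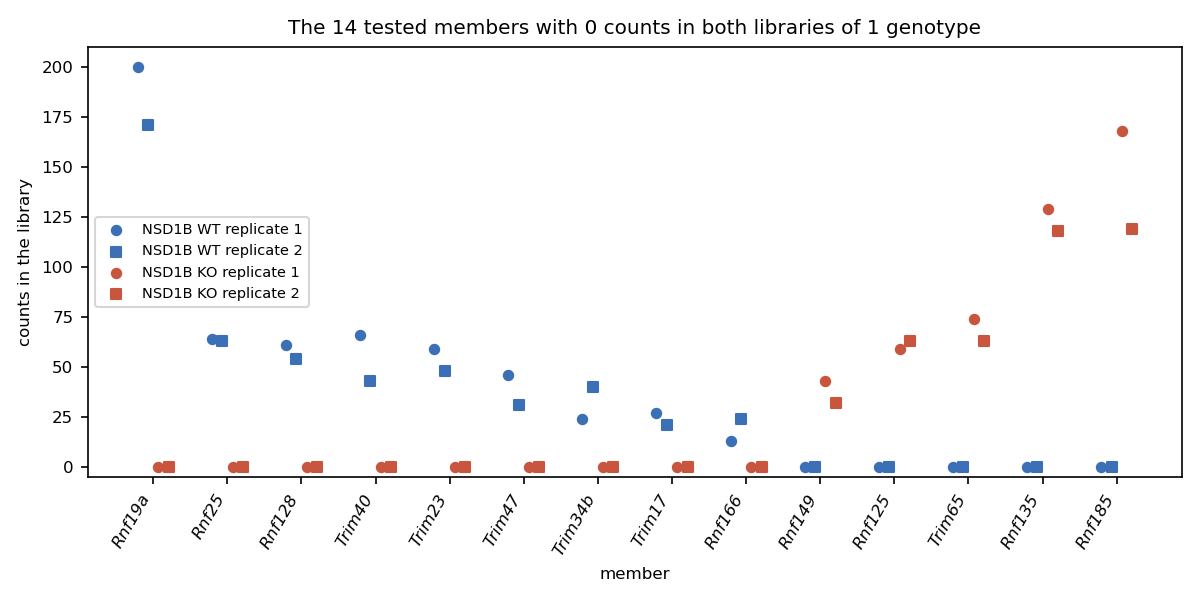
Counts per library (y axis) of the 14 tested members with 0 counts in both libraries of 1 genotype (x axis), with circles for replicate 1 and squares for replicate 2. Blue NSD1B WT values run up to 200 (Rnf19a) where both red NSD1B KO values are 0, and red values run up to 168 (Rnf185) where both blue values are 0.

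A further 4 tested members had only 1 or 2 counts over both NSD1B WT libraries. Trim37, mutated in mulibrey nanism, had 0 and 1 counts in NSD1B WT and 78 and 77 in NSD1B KO, a ratio of 161 (95% counting interval 28.5 to 6397). For Rnf214 the counts were 1 and 0 against 55 and 44, a ratio of 103 (18 to 4100.5), and for Trim7 they were 2 and 0 against 56 and 55, a ratio of 57.6 (15.6 to 482). For Rnf150 they were 1 and 0 against 15 and 13, a ratio of 29.1 (4.81 to 1189).

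The RNF members that act on chromatin and DNA damage were all tested, with 4 of 9 higher, 3 lower and 2 not called (median log2 fold change 0.65). Their called share of 77.8% was near the 78.2% of all tested genes. Rnf20 and Rnf40 form the heterodimer that monoubiquitylates histone H2B, and they differed in opposite directions. Rnf20 (chr4:49632006-49656887) had 440 and 414 counts in NSD1B WT and 89 and 85 in NSD1B KO, a log2 fold change of -2.24 ± 0.15 (adjusted p = 1.24e-18). Rnf40 had 4 and 7 counts in NSD1B WT and 120 and 81 in NSD1B KO, a log2 fold change of 4.21 ± 0.39 (adjusted p = 9.38e-14). Rnf40 shares 762 exon bases (13.6% of its exons) with 1700120K04Rik on the opposite strand. Since the strand setting of the counting is not stated, reads of the 2 genes cannot be told apart in this shared part. The libraries of the genotypes did not overlap for either subunit, as for 88.1% of all tested genes.

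Rnf2, the catalytic RING1B subunit of Polycomb repressive complex 1, had 366 and 393 counts in NSD1B WT and 659 and 586 in NSD1B KO, a 1.7-fold higher level (log2 0.77 ± 0.10, adjusted p = 4.09e-09). Of 16 tested partner subunits of Rnf2, 7 were higher and 7 were lower (median -0.28), a called share of 87.5% where that of all tested genes was 78.2%. Those higher included Pcgf1 (19 and 30 counts against 411 and 337, log2 3.98), Bmi1 (368 and 360 against 907 and 674, log2 1.17) and the paralogue Ring1 (12 and 14 against 26 and 34, log2 1.26). Those lower included Pcgf5 (247 and 293 against 111 and 146, log2 -1.01) and Cbx7 (208 and 203 against 123 and 96, log2 -0.86).

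The ligases that recognise SUMO-modified proteins, Rnf4 and Rnf111, also differed in opposite directions. Rnf4 had 1123 and 1187 counts in NSD1B WT and 462 and 405 in NSD1B KO (log2 -1.36 ± 0.09, adjusted p = 6.11e-18), and Rnf111 had 158 and 152 against 468 and 394 (log2 1.53 ± 0.13, adjusted p = 1.05e-14). Per kilobase of exon, their mean levels were 21.9 and 2.42 CPM in NSD1B WT and 8.54 and 6.98 CPM in NSD1B KO. Rnf138, which acts in the processing of DNA ends, was lower at 473 and 472 against 220 and 201 counts (log2 -1.11 ± 0.12, adjusted p = 1.02e-11). Rnf8 and Rnf168, which act in turn at DNA breaks, were not called (log2 -0.21, adjusted p = 0.506, and log2 0.65, adjusted p = 0.0898). Their relative Rnf169 was higher, with 22 and 29 counts against 83 and 59 (log2 1.52 ± 0.31, adjusted p = 1.60e-05).

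**Figure D3:**
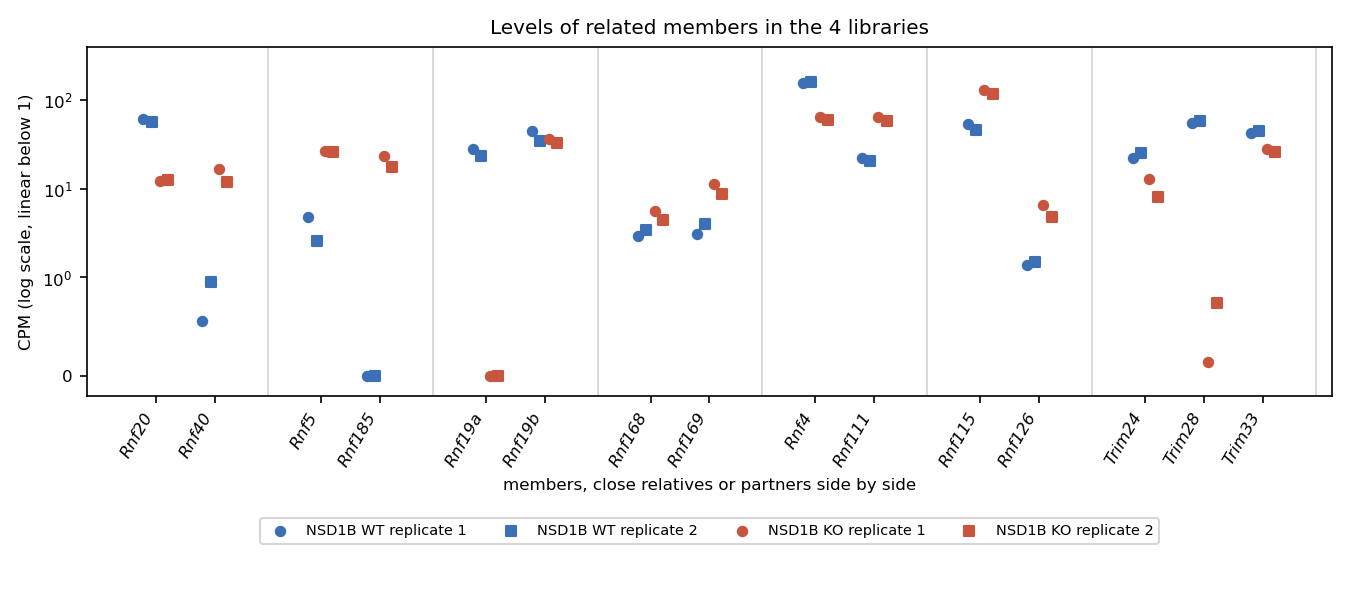
CPM in each of the 4 libraries (y axis, logarithmic above 1 and linear below) of close relatives or partners set side by side, with blue for NSD1B WT, red for NSD1B KO, circles for replicate 1 and squares for replicate 2. Rnf20 falls from 59.1 to 12.5 mean CPM while its partner Rnf40 rises from 0.759 to 14.4, Rnf4 is lower and Rnf111 higher in NSD1B KO, and Rnf5 and Rnf185 are both higher in NSD1B KO.

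Of 6 tested RING-between-RING members, 1 was higher, 2 were lower and 3 were not called (median -0.07). This made 50% called, where 78.2% of all tested genes were called. Rnf144a had 23 and 24 counts in NSD1B WT and 211 and 163 in NSD1B KO (log2 3.04 ± 0.24, adjusted p = 8.13e-16). Rnf19a was at 0 in NSD1B KO, as given above, while its paralogue Rnf19b had 319 and 256 counts against 264 and 223 (log2 -0.19 ± 0.14, adjusted p = 0.202). Rnf19b was called lower without NSD1B WT replicate 2 (log2 -0.33, adjusted p = 0.0472), and its direction turned to 0.28 with the trend on exon length and GC content removed. Rnf14 was 1.3-fold lower (363 and 407 counts against 317 and 255, adjusted p = 0.00419), and its call was lost without NSD1B WT replicate 2 (log2 -0.29, adjusted p = 0.0645) or NSD1B KO replicate 2 (log2 -0.27, adjusted p = 0.057) and with DESeq2 (adjusted p = 0.0795).

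Rnf31, the catalytic HOIP subunit of the linear ubiquitin chain assembly complex, had 48 and 62 counts against 71 and 61 and was not called (log2 0.32 ± 0.26, adjusted p = 0.265). Its accessory subunits were called in opposite directions: Sharpin was higher (127 and 135 against 458 and 359, log2 1.69) and Rbck1 lower (105 and 103 against 59 and 57, log2 -0.79). Of 7 tested partners and regulators of linear chains, 2 were higher and 3 lower (median -0.29). This made 71.4% called, where 78.2% of all tested genes were called. Tnfaip3, the NF-kB inhibitor A20, had 0 counts in NSD1B WT and 69 and 77 in NSD1B KO (at least 50.5-fold higher). Rnf11, a small RING protein that works with A20, had 3 and 4 counts in NSD1B WT and 182 and 153 in NSD1B KO (log2 5.58 ± 0.36, adjusted p = 4.17e-19). The A20-binding gene Tnip1 was lower (174 and 206 against 20 and 19, log2 -3.22).

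Of the 6 tested members with a lumenal protease-associated domain, all were called, 4 higher and 2 lower (median 1.10), where 78.2% of all tested genes were called. Rnf13, a ligase of endosomes and lysosomes, had the most counts of all members, with 3323 and 3131 counts in NSD1B WT and 4095 and 3654 in NSD1B KO, 1.25-fold higher (log2 0.32 ± 0.08, adjusted p = 2.74e-04). This call was lost with library size as the only scaling (log2 0.24) and once the trend on length and GC content was taken out (log2 0.02, adjusted p = 0.817). Rnf130 was 3.7-fold higher (141 and 119 counts against 492 and 436, adjusted p = 1.84e-17). Rnf167 was 2.78-fold lower (253 and 268 counts against 88 and 92, adjusted p = 3.80e-11). Rnf149 and Rnf150 were higher from 0 and 1 count, and Rnf128 was at 0 in NSD1B KO.

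Of 7 tested members of the endoplasmic reticulum, 4 were higher and 2 lower (median 0.46). This made 85.7% called, where 78.2% of all tested genes were called. The paralogues Rnf5 and Rnf185, membrane ligases of protein quality control, were both higher. Rnf5 had 34 and 19 counts in NSD1B WT and 192 and 176 in NSD1B KO (log2 2.84 ± 0.24, adjusted p = 8.85e-15), but 28.5% of its 50-base exon stretches also occur in other genes, mostly the overlapping Gm20463. Rnf121 was lower, with 125 and 167 counts against 8 and 9 (log2 -4.03 ± 0.32, adjusted p = 9.18e-16), and so was Rnf103, with 143 and 184 against 71 and 53 (log2 -1.34). Rnf139 and Rnf145, which take part in sterol-regulated protein degradation, were higher by 1.98-fold (adjusted p = 1.46e-09) and 1.38-fold (adjusted p = 0.00822). Rnf139 shares 1140 exon bases with Tatdn1 on the opposite strand. The call for Rnf145 was lost without NSD1B KO replicate 2 (log2 0.38, adjusted p = 0.05) and with DESeq2 (adjusted p = 0.0694).

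Of the 8 RNF members of innate immune signalling, 3 were higher, 4 were lower and 1 was not called (median -0.72). These shares were 37.5% higher and 50% lower, where 37.1% of all tested genes were higher and 41.1% lower. Rnf114 had 702 and 697 counts in NSD1B WT and 268 and 221 in NSD1B KO (log2 -1.46 ± 0.11, adjusted p = 1.00e-16). Rnf213, a giant ligase of antimicrobial defence, was 2.19-fold lower (399 and 362 counts against 186 and 149, adjusted p = 2.21e-10), and Rnf122 was 2.08-fold lower (192 and 170 against 93 and 75, adjusted p = 1.71e-06). Rnf115 was 2.48-fold higher (384 and 338 against 942 and 784, adjusted p = 4.95e-16). Higher transcripts thus included both Rnf135, an activator of RIG-I, and Rnf125, an inhibitor.

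Among 13 tested antiviral TRIM members, 7 were higher, 4 were lower and 2 were not called (median 0.69). These shares were 53.8% higher and 30.8% lower, where 37.1% of all tested genes were higher and 41.1% lower. Trim25, which also ubiquitylates RIG-I, had 5 and 10 counts in NSD1B WT and 558 and 535 in NSD1B KO, 74.4-fold higher (log2 6.22 ± 0.22, adjusted p = 7.36e-29). Its level went from 1.03 ± 0.473 to 78.5 ± 1.4 CPM (SD, n = 2). Trim14, an adaptor at mitochondria, had 37 and 32 counts against 196 and 167 (log2 2.44 ± 0.22, adjusted p = 8.26e-14), and shares 1650 exon bases with Nans on the opposite strand. Trim56 had 117 and 121 against 335 and 272 (log2 1.40 ± 0.15, adjusted p = 1.24e-11). Trim21, the cytosolic antibody receptor, had only 2 and 1 counts against 7 and 14 and was not tested (ratio 7.27, 95% counting interval 2.17 to 38.1).

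The RNA sensors and relays that these ligases act on did not move in 1 direction: of 11 tested, 3 were higher and 4 lower (median -0.12). This made 63.6% called, where 78.2% of all tested genes were called. Ddx58, which encodes RIG-I, was not called (182 and 276 counts against 253 and 218, log2 0.10, adjusted p = 0.565), nor was the adaptor Mavs (34 and 33 against 23 and 36, adjusted p = 0.753). Ifih1, which encodes MDA5, the target of Trim65, had 72 and 92 counts in NSD1B WT and 0 in NSD1B KO. The kinase Tbk1 (244 and 220 against 705 and 666, log2 1.62) and the ligase Traf3 (71 and 95 against 447 and 408, log2 2.42) were higher. Interferon-stimulated genes split evenly, 9 higher and 9 lower of 22 tested (median -0.04). Their called share of 81.8% was close to the 78.2% of all tested genes. Parp14 was higher (210 and 233 against 664 and 587, log2 1.55), whereas Ifit3 (160 and 175 counts) and Isg15 (19 and 20) were at 0 in NSD1B KO.

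The TRIM cluster on chromosome 7 (chr7:104218793-104507849, mm10) holds 10 members in 289 kb, mouse relatives of the retrovirus restriction factor TRIM5 alpha. Of 9 tested, 3 were higher, 4 were lower and 2 were not called. The called share of 77.8% was near the 78.2% of all tested genes. The summed level of the cluster was 761 and 736 CPM in NSD1B WT and 814 and 799.7 CPM in NSD1B KO. Along the chromosome, Trim34a was higher, with 1516 and 1495 counts against 2493 and 2232 (log2 0.70 ± 0.08, adjusted p = 6.02e-11). Trim5 (383 and 382 against 334 and 374, log2 -0.05, adjusted p = 0.668) and Trim12a (741 and 752 against 815 and 692, log2 0.07, adjusted p = 0.516) overlapped between genotypes. Trim34b was at 0 in NSD1B KO, and Trim12c was lower, with 237 and 278 counts against 78 and 83 (log2 -1.62 ± 0.17, adjusted p = 7.38e-12).

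The 4 Trim30 genes that follow, neighbours on the same strand, went in both directions: Trim30b lower, Trim30c and Trim30a higher, and Trim30d lower. Trim30b had 1676 and 1564 counts in NSD1B WT and 759 and 799 in NSD1B KO (2-fold lower, adjusted p = 2.16e-14). Trim30c had 10 and 7 against 185 and 147 (log2 4.32 ± 0.31, adjusted p = 1.59e-17). Trim30a, a negative regulator of Toll-like receptor signalling, had 699 and 735 against 1189 and 1043 (log2 0.69 ± 0.09, adjusted p = 1.39e-09). Trim30d had 148 and 130 against 2 and 9 (log2 -4.57 ± 0.37, adjusted p = 1.15e-15), and its log2 value was -3.83 without NSD1B KO replicate 1 and -6.02 without NSD1B KO replicate 2. The genotypes' libraries did not overlap for any of the 4, as for 88.1% of all tested genes. Related exons in this cluster make single values uncertain: 59.7% of the 50-base exon stretches of Trim34a and 56.8% of those of Trim34b occur in another gene, as do 36.6% for Trim5, 33.7% for Trim12c and 10.5% for Trim12a, but only 0.66% for Trim30c, 1.48% for Trim30b, 5.98% for Trim30a and 7.49% for Trim30d.

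**Figure D4:**
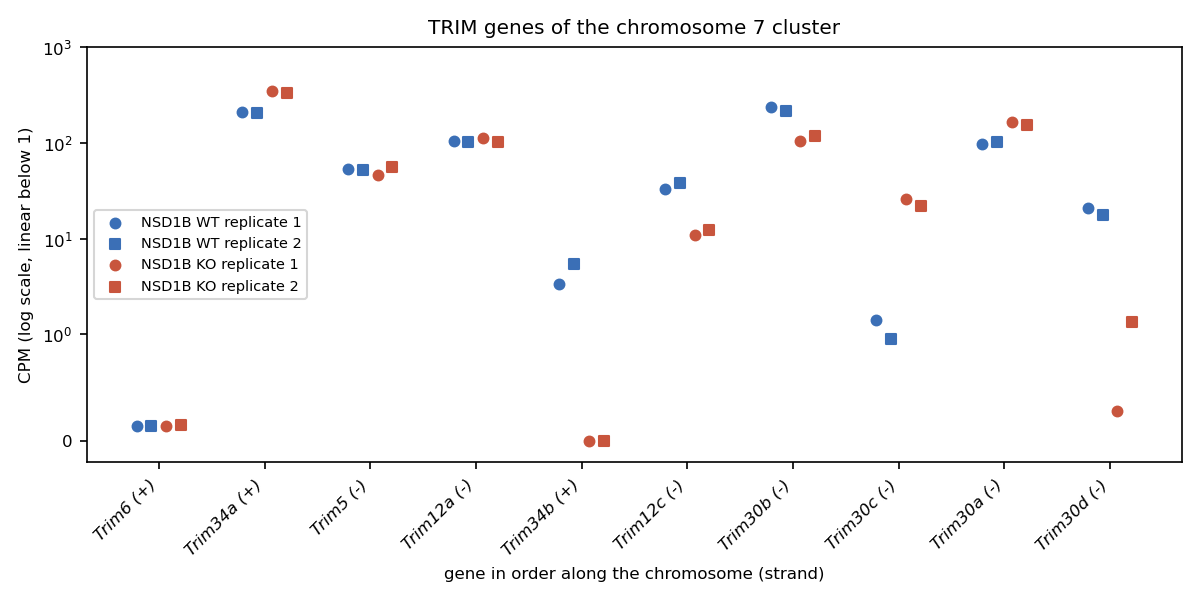
CPM of the 10 TRIM genes of the chromosome 7 cluster in each of the 4 libraries (y axis, logarithmic above 1 and linear below), in their order along the chromosome with the strand in brackets; blue is NSD1B WT and red NSD1B KO. Trim34a, Trim30c and Trim30a are higher in NSD1B KO, Trim34b, Trim12c, Trim30b and Trim30d are lower, and Trim5 and Trim12a overlap.

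All 3 tested members of the TIF1 group of transcription cofactors were lower (median -1.17), where 41.1% of all tested genes were lower. Their summed level was 121 and 128 CPM in NSD1B WT and 41.7 and 35.2 CPM in NSD1B KO. Trim28, known as KAP1 and the corepressor of KRAB zinc finger proteins, had 399 and 422 counts in NSD1B WT and 1 and 5 in NSD1B KO, 127-fold lower (log2 -6.98 ± 0.29, adjusted p = 2.93e-26). The size rests on few counts: the log2 value was -6.23 without NSD1B KO replicate 1 and -8.50 without NSD1B KO replicate 2. Trim28 lies at chr7:12999114-13031035, and none of its 50-base exon stretches occurs in another gene. Trim24 had 158 and 187 counts against 94 and 54 (log2 -1.17 ± 0.20, adjusted p = 1.23e-06) and Trim33 had 307 and 325 against 205 and 177 (log2 -0.67 ± 0.14, adjusted p = 1.63e-05). The fourth member, Trim66, had 1 count in all. Among 10 tested partners of Trim28 in KRAB-dependent silencing, 4 were higher and 3 lower (median 0.18). This made 70% called, where 78.2% of all tested genes were called. The H3K9 methyltransferase Setdb1 was lower (209 and 215 against 52 and 73, log2 -1.70), as were Cbx5 (156 and 173 against 9 and 37, log2 -2.77) and Chd4 (373 and 337 against 111 and 94, log2 -1.74). The KRAB zinc finger gene Zfp809, a retroviral silencer, was higher (52 and 56 against 668 and 584, log2 3.59).

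In the smaller TRIM groups most members had few or no counts. Of the NHL repeat members, Trim2, Trim3 and Trim71 were at 0 and Trim32 was higher, with 35 and 33 counts against 171 and 156 (log2 2.32 ± 0.23, adjusted p = 1.09e-12). The muscle members Trim54, Trim55 and Trim72 were at 0 and Trim63 had 2 counts. Of the microtubule members, Trim9 and Trim36 were at 0, Trim67 had 3 counts and Trim46 was not called (36 and 40 against 39 and 47, log2 0.24, adjusted p = 0.492). Trim46 passed the test with the length and GC trend removed (log2 0.81, adjusted p = 0.0199).

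All 15 tested TRIM members outside these groups were called, 9 higher and 6 lower, where 78.2% of all tested genes were called. Trim27, a ligase of endosomal trafficking and signalling, had 18 and 28 counts in NSD1B WT and 286 and 234 in NSD1B KO (log2 3.54 ± 0.22, adjusted p = 2.13e-19). Trim59 had 181 and 174 against 608 and 587 (log2 1.80 ± 0.12, adjusted p = 6.97e-19). Trim41 was lower, with 92 and 119 against 27 and 25 (log2 -1.96 ± 0.28, adjusted p = 1.38e-08). Of 19 tested RNF members outside the role groups, 7 were higher and 6 lower, a called share of 68.4% against the same 78.2%. Rnf220 fell from 186 and 196 to 17 and 23 counts (log2 -3.19 ± 0.25, adjusted p = 4.32e-16), and Rnf141 from 142 and 129 to 26 and 26 (log2 -2.32 ± 0.26, adjusted p = 2.59e-11).

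**Figure D5:**
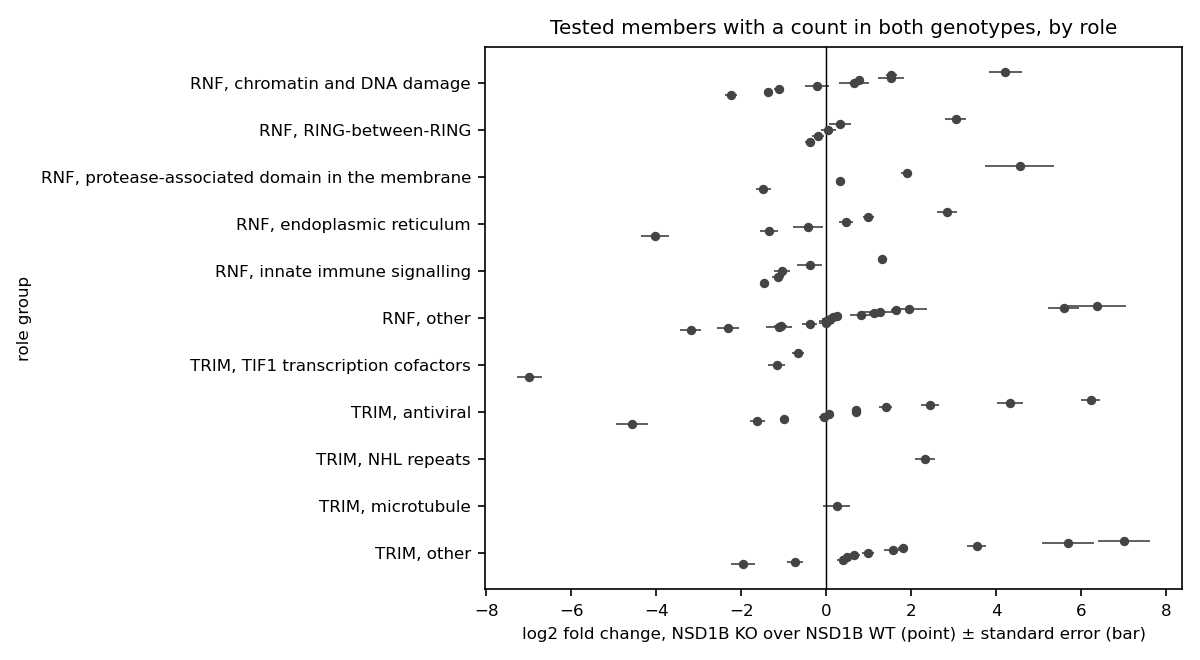
Log2 fold change of NSD1B KO over NSD1B WT (points, bars are standard errors of the fit) for each tested member with a count in both genotypes, grouped by role on the y axis. All points of the TIF1 group lie below 0, down to -6.98 for Trim28, whereas the antiviral TRIM group spans -4.57 to 6.22 and the RNF chromatin group -2.24 to 4.21.

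Levels of different genes were compared per kilobase of exon. In NSD1B WT the highest RNF levels were those of Rnf7, the RING subunit of cullin ligases (113 CPM per kb), Rnf13 (44.6), Rnf114 (28.8) and Rnf4 (21.9). In NSD1B KO Rnf7 (136 CPM per kb) and Rnf13 (55.5) kept ranks 1 and 2, while Rnf114 (10.4) and Rnf4 (8.54) moved to ranks 12 and 14. For Rnf7, 27.4% of the 50-base exon stretches occur in another gene. Rnf7 had 1100 and 1069 counts against 1325 and 1184, and its log2 fold change of 0.26 ± 0.08 (adjusted p = 0.00444) lay at the fold limit and was not called. Among TRIM members the order in NSD1B WT was Trim34a (80.4 CPM per kb), Trim30b (29.8), Trim30a (24.1) and Trim12a (17.9). In NSD1B KO Trim34a (131 CPM per kb) was first again, followed by Trim30a (39) and Trim59 (25.6), and Trim30b (14.9) had rank 5. Trim28 went from rank 6 to rank 29 and Trim25 from rank 30 to rank 8.

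Chosen lists of other ubiquitin pathway genes also differed in both directions. Of 10 tested ubiquitin and E1 genes, 7 were lower and 1 was higher (median -0.40). The ubiquitin gene Ubb had 52731 and 52447 counts against 43063 and 36329 (log2 -0.35, adjusted p = 4.80e-05), and Sae1, a subunit of the SUMO E1, had 304 and 291 counts against 1 and 1. Of 18 tested E2 genes that work with RING ligases, 7 were higher and 5 lower (median 0.24). Ube2d3, a general partner of RING ligases, was 1.89-fold higher (2993 and 2862 counts against 5743 and 4953, adjusted p = 7.16e-15) and Ube2e3 was 13.3-fold higher (68 and 80 against 962 and 936, adjusted p = 1.57e-29). Of 35 tested RING ligases with names of their own, 17 were higher and 11 lower (median 0.28). The called shares were 80% (ubiquitin and E1), 66.7% (E2) and 80% (these RING ligases), where 78.2% of all tested genes were called. Traf6, the ligase of Toll-like receptor and CD40 signalling, had 298 and 265 counts in NSD1B WT and 0 in NSD1B KO (at least 181-fold lower).

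Some differing members lay beside each other in the genome. There were 16 pairs of neighbouring counted members within 100 kb, and in 10 of them both were called. In 7 of these 10 pairs the neighbours differed in opposite directions (70%), where 44.1% of 6167 pairs of adjacent called genes among all tested genes did. Neighbouring members need not be adjacent genes, so the shares are only roughly comparable. The 7 pairs were Trim41 and Trim7, Trim17 and Trim11, Trim47 and Trim65, Trim26 and Trim40, Rnf125 and Rnf138, Trim30b and Trim30c, and Trim30a and Trim30d, and several share a cluster, so they are not independent. Trim11 lost its call without NSD1B WT replicate 1 (log2 0.31, adjusted p = 0.0989). Trim47 (at 0 in NSD1B KO) and Trim65 (at 0 in NSD1B WT) overlap by 5365 bp on the same strand of chromosome 11, and 225 of their exon bases are shared. Across all members, 27 tested genes share exon bases with a gene on the opposite strand, and 20 have more than 10% of their 50-base exon stretches in another gene.

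The length and GC content of the members are given as a description. The median gene length was 43 kb for RNF members that were higher, 24.9 kb for those lower and 27.6 kb for those not called. For TRIM members it was 17.8, 18.4 and 15.6 kb, and for all tested genes 21.3, 17.7 and 10.2 kb. The median exon GC content was 48.5% and 47.9% for RNF members that were higher and lower, and 50.3% and 48.4% for TRIM members.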

How the data were processed

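RNA of B220+ splenic B cells (2 NSD1B WT and 2 NSD1B KO libraries, 150 bp paired-end reads) was mapped by the authors to mm10 with Bowtie2, and Cufflinks is named for FPKM. The deposited values are raw counts per gene. Neither the program that counted reads, nor its annotation release or strand setting, is stated in the sources used here. Rows that name no gene were left out of library sizes: 44.3 to 44.6% of reads had no feature, 11.2 to 13.2% were not unique and 2.21 to 2.41% were ambiguous. Reads shared between similar genes can therefore be missing from both.

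Counts were tested with edgeR 4.0.16 (quasi-likelihood, TMM, filterByExpr at 10 counts and a total of at least 15, genotype as the only term) on R 4.3.3, with Benjamini-Hochberg adjustment over all 11657 tested genes and a fold limit of 1.2. The procedure was run on simulated data in which 200 of 11657 genes were changed by a log2 value of 1. edgeR recovered 83.0% of these, with 13 false calls. In the real data 78.2% of tested genes were called, so the simulation cannot show how the scaling behaves with that many differences. Replicate libraries differed beyond sampling noise (mean chi-square per gene 2.92 in NSD1B WT and 3.78 in NSD1B KO), and the coefficient of variation in the fit was 0.0735. The numbers of counts limit low genes: 3 counts over a group correspond to 0.208 CPM in NSD1B WT and 0.215 CPM in NSD1B KO. Intervals and floors cover counting error only. CPM are scaled by TMM and means carry the SD of 2 libraries.

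Genes were matched to GENCODE M21 (GRCm38) by identifier without version (55141 of 55401, and all 150 members). RefSeq promoters of GRCm38.p6 matched 117 members by symbol, and a gene with several starts counts as holding a motif where any of them does. Alternatives were other scalings, other filters, DESeq2 1.42.0, limma-voom 3.58.1, other thresholds, leaving out each library, a replicate block, and a loess trend on exon length and GC content.

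The members and lists were chosen with earlier results of these data known. Genes named with values were members at 0 in 1 genotype with at least 50 counts in the other, the 6 largest increases and decreases per family among called members counted in each library whose mean log2 CPM reached 3, the 3 highest members per kb of exon, the 4 highest members of each role group, and Nsd1. Other members and partner genes were named after their values were seen. Some genes that these rules name are not reported here.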

Additional observations from a re-analysis of the deposited data

How the results depend on the processing

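Of 961 values of the 55 named members under up to 18 alternatives, 918 kept their direction and their side of the threshold, 20 lost the call, 13 gained it and 10 turned sign. Those that turned were never called in the form reported: Rnf216 (-0.02 with library size alone, -0.06 to 0.17 without single libraries, -0.00 among them), Trim12a (-0.01 with library size alone, -0.01 to 0.14 without single libraries, -0.19 with the length and GC trend removed, with or without the block) and Rnf19b (-0.33 to 0.03 without single libraries, 0.28 with the trend removed and 0.29 with the block added). The RNF median of 0.08 was 0.04 with upper quartile scaling, 0.00 with library size alone, -0.01 with 1 CPM in all 4 libraries, 0.31 with the trend removed (0.31 also with the block) and 0.11 to 0.24 without single libraries. The TRIM median of 0.39 was 0.52 with at least 1 count in each library, 0.61 with the trend removed (0.61 also with the block) and 0.34 to 0.61 without single libraries. Removing the trend moved the median of all genes by 0.13. Filters that drop genes absent from a library test fewer genes: with 1 CPM in all 4 libraries 8334 genes were tested, of which 5846 were called (2855 higher, 2991 lower), with 14 RNF members higher, 18 TRIM members called and 6 TRIM members lower. With at least 1 count in each library 3117 of all genes and 8 TRIM members were lower. With a fold limit of 2, 11 TRIM members were higher and Nsd1 (-0.74) was not called. Rnf7 was called under 10 alternatives, as its value lies at the fold limit. The replicate numbers do not pair the samples by any label, and the correlation of same-numbered deviations was 0.0645 over 2 pairs. With the replicate block 41 RNF and 30 TRIM members and 8960 of all genes were called, and Nsd1 stayed at -0.74. With 2 libraries a group, low counts limit the precision of members near 3 counts.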
